A study of Homo sapiens with 6 samples.

Results

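NT5E and 8 other genes of the extracellular adenosine pathway (ENTPD1, ENTPD3, ADA, ADK, ADORA1, ADORA2A, ADORA2B and SLC29A1) were described in SiHa cells, a human cervical squamous cell carcinoma line. These 9 of 58174 genes were selected by pathway with their differences between the groups in these same libraries already known. Their values are therefore given as a description. Where calls from the fit over all genes include them, nothing is read from those calls. A BRCA1 plasmid, GV230-BRCA1, was introduced by lipofection in 3 samples (OV-BRCA1 group) and empty GV230 in 3 others (NC group), and the cells were taken for mRNA sequencing 48 h later. Both groups had thus been exposed to plasmid and to the lipid reagent, expression was transient, and the samples of each group were biological replicates of 1 cell line. Levels are FPKM, that is, fragments per kilobase of transcript scaled to the mapped fragments of the library, summed over the transcripts of a gene. BRCA1 itself stood at 35.7, 40.8 and 34.9 FPKM in the 3 OV-BRCA1 samples and at 20.1, 14.9 and 21.7 in the 3 NC samples, a difference in the labelled direction (log2 fold change 0.95, SE 0.14, limma adjusted p = 0.00373).

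Extracellular ATP released by stressed cells is cut on the cell surface by ENTPD1 (CD39) and related ecto-nucleotidases to AMP, and NT5E (CD73) then takes the last phosphate from AMP to give adenosine. Adenosine acts on a family of G protein-coupled receptors, of which ADORA2A and ADORA2B raise cAMP through Gs, whereas ADORA1 and ADORA3 act through Gi. Its signal is ended by uptake through equilibrative transporters such as SLC29A1 (ENT1), by phosphorylation to AMP by ADK and by deamination to inosine by ADA. In tumors, CD73 on cancer cells is known as a source of adenosine that restrains T cells and natural killer cells, which is why the pathway is studied as an immune checkpoint.

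Among the 9 genes, NT5E had the largest difference between the groups. NT5E was 12.7-fold higher and the transporter SLC29A1 2.56-fold higher in OV-BRCA1 than in NC, ADA was at 58.9% of its NC level, and ADK and the 3 receptors had log2 fold changes between -0.04 and 0.13. The upstream enzymes ENTPD1 and ENTPD3 were low or listed at 0. Of the 9 genes, 8 passed the filter on low values (0.5 FPKM or more in 3 or more samples), as did 16321 genes in all. NT5E and SLC29A1 met the criterion of an adjusted p below 0.05 with an absolute log2 fold change above 1 on the higher side and none met it on the lower side, where 2.89% and 1.1% of all genes tested were called. At an adjusted p below 0.05 alone, NT5E and SLC29A1 were called higher and ADA lower, against 16.4% and 18.9% of all genes. The groups did not overlap in 4 genes that were higher (NT5E, SLC29A1, ADK and ADORA1) and in 1 that was lower (ADA), against 23.4% and 27.4% of all genes, and they overlapped in ENTPD1, ADORA2A and ADORA2B. Nothing is read from these counts, since the members were chosen on the same contrast. The median log2 fold change was 0.11 over the 8 genes and -0.04 over all genes tested.

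**Figure D1:**
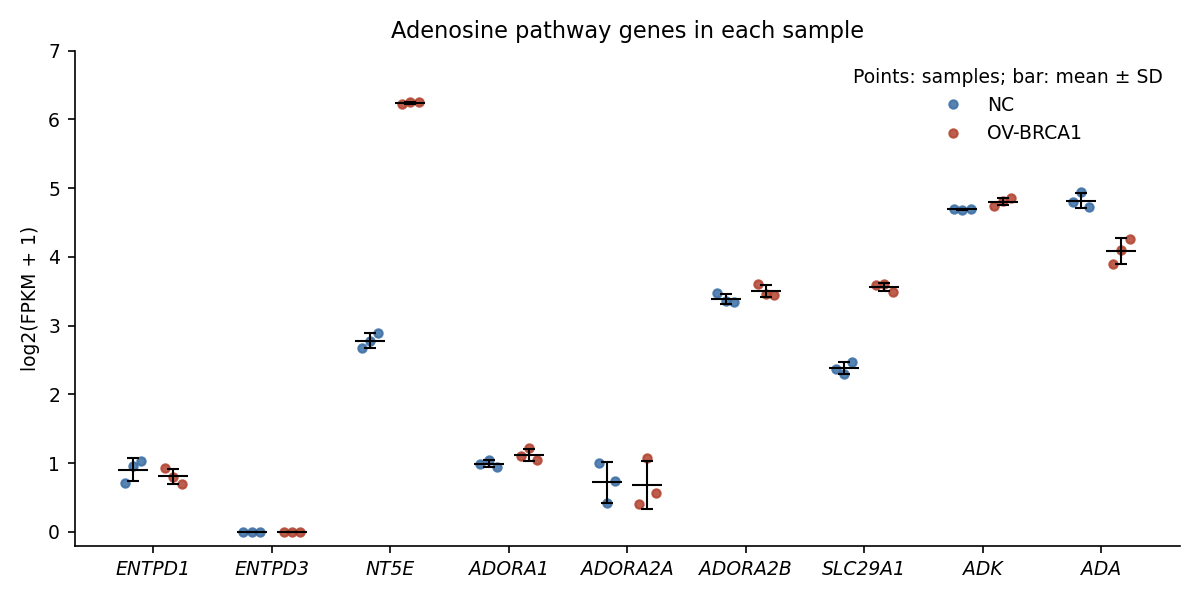
Level of each of the 9 genes on the log2(FPKM + 1) scale (y axis) in each sample (points), by gene (x axis) and group (blue, NC; red, OV-BRCA1), with the mean and SD of 3 samples as black bars. NT5E is at 5.40-6.40 FPKM in NC and 73.7-75.4 FPKM in OV-BRCA1, SLC29A1 and ADA are the next most separated genes in opposite directions, and ENTPD3 is at 0 in all samples.

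NT5E (ENSG00000135318) lies on the plus strand of chromosome 6, at 85449584 to 85495791 of GRCh38, and encodes CD73, a dimer held in the outer leaflet of the plasma membrane by a lipid anchor. Its levels were 73.7, 75.0 and 75.4 FPKM in the OV-BRCA1 samples and 5.40, 5.89 and 6.40 FPKM in the NC samples. All 3 OV-BRCA1 samples lay close together and far above all 3 NC samples. The group levels were 74.7 ± 0.867 and 5.89 ± 0.499 FPKM (SD, n = 3 each), and the log2 fold change on the log2(FPKM + 1) scale was 3.46 (SE 0.07). Among the 16321 genes tested, this was the 26th highest log2 fold change. NT5E passed from the 47.8th percentile of levels in NC to the 94.5th in OV-BRCA1, and among the 9 genes from the 4th level to the 1st. The libraries were bulk RNA, so more cells with NT5E transcript and more NT5E transcript per cell cannot be told apart, here or for the other genes.

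The NT5E promoter is shown because the start site it surrounds carried almost all of the NT5E signal. It spans chr6:85449833-85450132 on the plus strand of GRCh38.p14 (RefSeq), from 250 bases before to 50 bases after the start, and capitals mark GGGCGG, the core of the GC box read by SP1-type factors, and TGACG, the core of the cAMP response element, on either strand.
NT5E promoter: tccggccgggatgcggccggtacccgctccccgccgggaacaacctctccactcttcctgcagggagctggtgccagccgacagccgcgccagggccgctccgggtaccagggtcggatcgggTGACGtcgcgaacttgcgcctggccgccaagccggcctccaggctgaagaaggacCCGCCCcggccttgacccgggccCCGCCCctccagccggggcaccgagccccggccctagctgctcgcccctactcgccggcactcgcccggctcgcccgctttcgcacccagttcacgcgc
It held GGGCGG 2 times, at positions -72 and -49 from the start, and TGACG 1 time, at -127. Of 35116 RefSeq promoters of this length, 45.0% held GGGCGG and 24.6% held TGACG on at least 1 strand. No ACGTG (the hypoxia response element core), TGANTCA (the AP-1 site), CCAAT or TATAAA, no NF-kB consensus and no core of the interferon-stimulated response element was found in this window on either strand. Of all promoters, 21.4%, 7.71%, 34.6%, 11.5%, 5.91% and 1.45% held these motifs in the same order. The GC content of the window was 75.0%, against a median of 58.7% over all promoters. The motifs were chosen after the levels were seen, and each match is a description of the letters alone.

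Transcripts starting within 2000 bases of this start gave 98.4 ± 0.613% of the NT5E signal in OV-BRCA1 and 99.9 ± 0.232% in NC. NT5E-201, the full-length form of 9 exons that encodes 574 residues, stood at 49.1, 49.4 and 49.3 FPKM in OV-BRCA1 and at 2.99, 2.11 and 3.08 FPKM in NC. NT5E-202, a form of 3 exons whose reading frame gives 264 residues, stood at 22.8, 24.01 and 24.02 FPKM in OV-BRCA1 and at 2.30, 3.34 and 3.17 FPKM in NC. Both forms were thus higher in all OV-BRCA1 samples than in any NC sample. The share of NT5E-201 was 66.0 ± 0.570% in OV-BRCA1 and 46.5 ± 9.84% in NC, and the ranges of 65.4% to 66.5% and 35.9% to 55.3% did not overlap. That of NT5E-202 was 31.6 ± 0.632% against 49.6 ± 7.04%. About 214 to 291 fragments of the whole gene were estimated behind the NC shares in each sample, and the split between forms depends on the quantification tool, which is not given in the sources used here. Transcripts and start sites were examined after the gene levels were seen.

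Upstream of NT5E, ENTPD1 (ENSG00000138185, chromosome 10, 95711779 to 95869695, plus strand), which cuts ATP and ADP to AMP, was near the lower limit of what these libraries measured. Its levels were 0.896, 0.748 and 0.618 FPKM in OV-BRCA1 and 0.640, 0.946 and 1.04 FPKM in NC. The groups overlapped, with means of 0.754 ± 0.139 and 0.877 ± 0.211 FPKM and a log2 fold change of -0.09 (SE 0.12). All of it in NC and 97.3% of it in OV-BRCA1 was assigned to ENTPD1-205. The gene overlaps the antisense gene ENTPD1-AS1 (7.08 against 6.43 FPKM) and the sense intronic gene AL365273.1 (5.24 against 4.73 FPKM), both more abundant than ENTPD1. Whether counting used strand is not given in the sources used here, so reads of ENTPD1 and of these neighbours may not be fully separated. ENTPD3 (ENSG00000168032, chromosome 3, 40387156 to 40428744), an ecto-nucleotidase of the same family, was listed at 0 FPKM in all 6 samples. Its antisense neighbour ENTPD3-AS1 stood at 1.48 ± 0.203 FPKM in OV-BRCA1 and 2.28 ± 0.489 FPKM in NC.

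The receptors differed far more from one another than between groups. ADORA2B (ENSG00000170425, chromosome 17, 15944917 to 15975746, plus strand), the Gs-coupled receptor of low affinity for adenosine, was the most abundant at 10.4 ± 0.686 FPKM in OV-BRCA1 and 9.50 ± 0.565 FPKM in NC. Its samples stood at 11.15, 9.97 and 9.95 FPKM in OV-BRCA1 and at 10.1, 9.25 and 9.11 FPKM in NC, so that the groups overlapped. The log2 fold change was 0.11 (SE 0.08). The coding form ADORA2B-201 held 83.2% of the signal in OV-BRCA1 and 79.2% in NC, and the rest was assigned to a retained intron form.

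ADORA1 (ENSG00000163485, chromosome 1, 203090654 to 203167405, plus strand), the Gi-coupled receptor of high affinity, stood at 1.15, 1.32 and 1.07 FPKM in OV-BRCA1 and at 0.980, 1.07 and 0.923 FPKM in NC. The groups were separated only by the third decimal, with 1.0696 FPKM as the lowest OV-BRCA1 sample and 1.0686 FPKM as the highest NC sample. The means were 1.18 ± 0.130 and 0.990 ± 0.0733 FPKM, and the log2 fold change was 0.13 (SE 0.09). ADORA2A (ENSG00000128271, chromosome 22, 24417879 to 24442360, plus strand), the Gs-coupled receptor of high affinity best known on T cells, stood at 0.331, 1.11 and 0.478 FPKM in OV-BRCA1 and at 1.00, 0.334 and 0.678 FPKM in NC. The spread within each group exceeded the difference between the means of 0.638 ± 0.412 and 0.671 ± 0.334 FPKM, and the log2 fold change was -0.04 (SE 0.22). It changed sign when 1 sample was left out, from -0.19 without NC replicate 2 to 0.10 without OV-BRCA1 replicate 1. An estimated 7.35 to 42.6 fragments per sample lay behind these ADORA2A values. ADORA2A also shares its strand with the read-through gene SPECC1L-ADORA2A, at 0.199 FPKM in OV-BRCA1 and 0.539 FPKM in NC, and reads may have been divided between them.

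SLC29A1 (ENSG00000112759, chromosome 6, 44219505 to 44234151, plus strand) encodes ENT1, the equilibrative transporter that carries adenosine down its gradient across the plasma membrane and is a known route of entry for nucleoside drugs such as gemcitabine. Its levels were 11.1, 11.1 and 10.3 FPKM in OV-BRCA1 and 4.18, 3.94 and 4.56 FPKM in NC. The groups were far apart relative to the spread within them, with means of 10.8 ± 0.480 and 4.23 ± 0.314 FPKM. The log2 fold change was 1.18 (SE 0.08), the 372nd highest of the genes tested.

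SLC29A1 transcripts start at several sites, and the site at 44223595 separated the groups most clearly. The 6 transcripts that start within 2000 bases of it summed to 5.65, 5.24 and 4.82 FPKM in OV-BRCA1 and to 1.46, 1.58 and 1.42 FPKM in NC, a 3.53-fold difference. The 3 transcripts at the upstream start 44219615 gave 2.05 ± 0.320 and 1.30 ± 0.953 FPKM, and the groups overlapped. The transcript that starts at 44227139, near neither of them, gave 3.53 ± 0.535 and 1.43 ± 0.822 FPKM. Its share of the gene ran from 19.8% to 57.0% in NC. The split between transcripts depends on the quantification tool, which is not given in the sources used here. The promoter of the 44223595 start is shown because that start separated the groups most clearly. It spans chr6:44223345-44223644 on the plus strand of GRCh38.p14 (RefSeq), with capitals for GGGCGG.
SLC29A1 promoter: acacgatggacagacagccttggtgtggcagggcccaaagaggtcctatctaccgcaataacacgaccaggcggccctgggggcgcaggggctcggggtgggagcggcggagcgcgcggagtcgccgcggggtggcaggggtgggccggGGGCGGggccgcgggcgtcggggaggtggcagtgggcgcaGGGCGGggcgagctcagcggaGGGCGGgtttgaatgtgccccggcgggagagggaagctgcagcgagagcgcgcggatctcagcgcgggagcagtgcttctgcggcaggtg
It held GGGCGG 3 times, at positions -101, -61 and -40, and none of the other motifs searched. The window around the upstream start also held GGGCGG 3 times, with the palindrome CACGTG, which contains ACGTG on both strands, 1 time.

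The genes that remove adenosine inside the cell did not move together. ADA (ENSG00000196839, chromosome 20, 44619522 to 44652233, minus strand), the deaminase that turns adenosine into inosine, stood at 13.8, 16.15 and 18.3 FPKM in OV-BRCA1 and at 26.7, 29.7 and 25.5 FPKM in NC. Every OV-BRCA1 sample was below every NC sample. The means were 16.1 ± 2.20 and 27.3 ± 2.18 FPKM and the log2 fold change was -0.73 (SE 0.11). The 8 transcripts at the RefSeq start 44651699 carried the difference, with 14.7 ± 1.66 against 24.5 ± 1.27 FPKM. ADA-201, the form that encodes the 363-residue enzyme, was at 6.99 ± 0.365 against 12.3 ± 2.95 FPKM, and its share of the gene hardly differed, at 43.8% and 44.6%. The last 4726 bases of ADA lie within PKIG on the opposite strand, which stood at 9.54 ± 0.800 FPKM in OV-BRCA1 and 11.6 ± 0.452 FPKM in NC. The ADA promoter, at chr20:44651650-44651949 on the minus strand of GRCh38.p14 (RefSeq), is shown as the counterpart to NT5E, since ADA was the 1 gene of the 9 whose groups were separated on the lower side.
ADA promoter: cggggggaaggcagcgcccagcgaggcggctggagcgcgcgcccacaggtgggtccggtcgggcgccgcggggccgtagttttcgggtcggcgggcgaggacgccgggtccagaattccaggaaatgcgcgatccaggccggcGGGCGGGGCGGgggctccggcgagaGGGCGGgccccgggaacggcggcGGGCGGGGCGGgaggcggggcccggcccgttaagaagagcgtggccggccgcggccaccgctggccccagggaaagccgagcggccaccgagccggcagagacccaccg
With GGGCGG in capitals, it held this motif 5 times between positions -107 and -54, in 2 pairs of overlapping copies and 1 single copy, at a GC content of 79.3%. It held none of the other motifs searched.

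ADK (ENSG00000156110, chromosome 10, 74151185 to 74709303, plus strand) is the kinase that returns adenosine to AMP. It differed little in sum, but its FPKM was divided differently between transcripts of 2 start sites. The gene stood at 25.9, 27.0 and 27.96 FPKM in OV-BRCA1 and at 24.9, 24.8 and 25.0 FPKM in NC, with means of 26.9 ± 1.05 and 24.9 ± 0.103 FPKM. The groups did not overlap, and the log2 fold change was 0.11 (SE 0.05). Transcripts from the downstream start, mainly ADK-202 with 345 residues, summed to 20.8, 19.3 and 22.2 FPKM in OV-BRCA1 and to 13.2, 14.4 and 15.3 FPKM in NC. Transcripts from the upstream start, among them ADK-201 with 362 residues and ADK-205 with 305 residues, summed to 4.77, 7.45 and 5.63 FPKM in OV-BRCA1 and to 10.96, 10.3 and 9.22 FPKM in NC. The FPKM assigned to the 2 starts thus differed in opposite directions, without overlap between groups at either. Among all genes tested, groups did not overlap in 23.4% (higher) and 27.4% (lower). Start sites were not measured directly, and the split between forms depends on the quantification tool, which is not given in the sources used here. ADK-201 alone ran from 0.442 to 3.04 FPKM within OV-BRCA1. The downstream start gave 77.1 ± 4.92% of ADK signal in OV-BRCA1 and 57.5 ± 4.19% in NC. The upstream start gave 22.0 ± 4.86% and 40.9 ± 3.67%. As background, the long ADK protein is found in the nucleus, where it clears adenosine formed by methylation reactions, and the short protein in the cytoplasm. ADK-201, which encodes the long protein, did not separate the groups (1.89 ± 1.32 against 2.04 ± 0.198 FPKM), and most of the difference at the upstream start lay in ADK-205 (3.998 ± 0.499 against 8.10 ± 0.716 FPKM).

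Both ADK promoters (GRCh38.p14, plus strand, RefSeq) are shown because the FPKM assigned to their transcripts differed in opposite directions. The upstream one is chr10:74150971-74151270 and the downstream one chr10:74176513-74176812, with GGGCGG and TGACG in capitals on either strand.
ADK upstream promoter: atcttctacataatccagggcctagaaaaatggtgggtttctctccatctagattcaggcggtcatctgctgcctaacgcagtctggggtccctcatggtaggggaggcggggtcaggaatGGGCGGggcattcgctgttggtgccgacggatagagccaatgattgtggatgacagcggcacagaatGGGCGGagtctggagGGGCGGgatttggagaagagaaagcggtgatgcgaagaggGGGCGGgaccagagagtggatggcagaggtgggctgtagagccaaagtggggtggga
ADK downstream promoter: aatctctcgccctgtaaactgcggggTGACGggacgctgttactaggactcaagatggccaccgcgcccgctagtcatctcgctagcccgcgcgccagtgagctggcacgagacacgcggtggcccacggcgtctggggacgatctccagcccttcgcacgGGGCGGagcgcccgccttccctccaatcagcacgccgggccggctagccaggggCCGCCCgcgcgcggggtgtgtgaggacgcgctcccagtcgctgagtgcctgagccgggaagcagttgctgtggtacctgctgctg
The upstream window held GGGCGG 4 times, no TGACG and a GC content of 58.0%, and the downstream window held GGGCGG 2 times, TGACG 1 time and a GC content of 69.3%. Both held CCAAT 1 time. A RefSeq promoter was found for 8 of the 9 genes, ADORA2A being the exception.

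**Figure D2:**
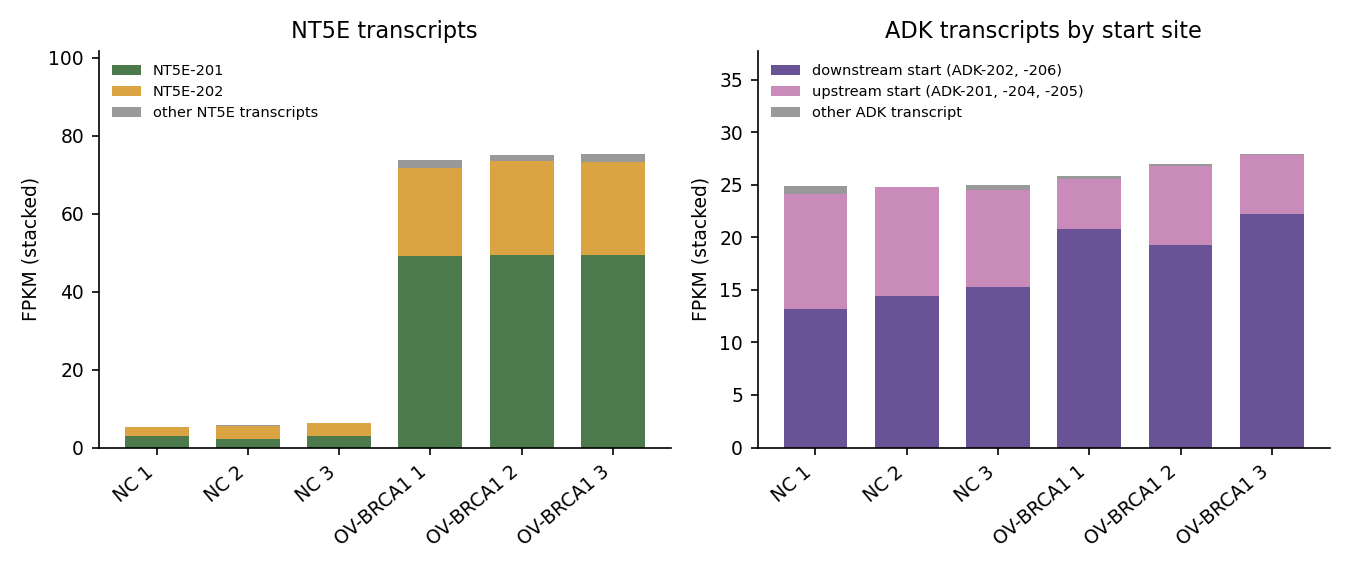
Stacked FPKM (y axis) in each of the 6 samples (x axis) for the transcripts of NT5E (left; NT5E-201, NT5E-202 and the others) and of ADK by start site (right; downstream, upstream and other). NT5E-201 and NT5E-202 are both higher in the OV-BRCA1 samples, while in ADK the downstream part is 13.2-15.3 FPKM in NC and 19.3-22.2 FPKM in OV-BRCA1 and the upstream part 9.22-10.96 and 4.77-7.45 FPKM.

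The order of the genes by level changed with the group. In NC it ran ADA (27.3 FPKM), ADK (24.9), ADORA2B (9.50), NT5E (5.89), SLC29A1 (4.23), ADORA1 (0.990), ENTPD1 (0.877) and ADORA2A (0.671), with ENTPD3 at 0. The samples of neighbouring genes in this order overlapped only for ADORA1 with ENTPD1 and for ENTPD1 with ADORA2A. In OV-BRCA1 it ran NT5E (74.7 FPKM), ADK (26.9), ADA (16.1), SLC29A1 (10.8), ADORA2B (10.4), ADORA1 (1.18), ENTPD1 (0.754) and ADORA2A (0.638), and neighbours overlapped only for SLC29A1 with ADORA2B and for ENTPD1 with ADORA2A.

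Ratios within a sample do not depend on the scaling between samples and were computed after the levels were seen. The ratio of NT5E, which makes adenosine, to ADA, which deaminates it, was 5.33, 4.64 and 4.13 in OV-BRCA1 and 0.202, 0.198 and 0.251 in NC. NT5E transcript was therefore below ADA transcript in every NC sample and above it in every OV-BRCA1 sample. The ratio of NT5E to ADK was 2.77 ± 0.0775 against 0.237 ± 0.0194 (SD, n = 3 each), that of NT5E to SLC29A1 6.92 ± 0.373 against 1.40 ± 0.101, and that of SLC29A1 to ADK 0.402 ± 0.0314 against 0.170 ± 0.0119. ADK to ADA was above 1 in every OV-BRCA1 sample (1.69 ± 0.168) and below 1 in every NC sample (0.915 ± 0.0745). The ratios leave out ALPP, which can also strip phosphate from AMP. ALPP stood at 65.4 ± 3.41 FPKM in NC and at 13.2 ± 0.554 FPKM in OV-BRCA1. These are ratios of transcript levels, and neither protein nor enzyme activity nor adenosine was measured in these libraries.

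**Figure D3:**
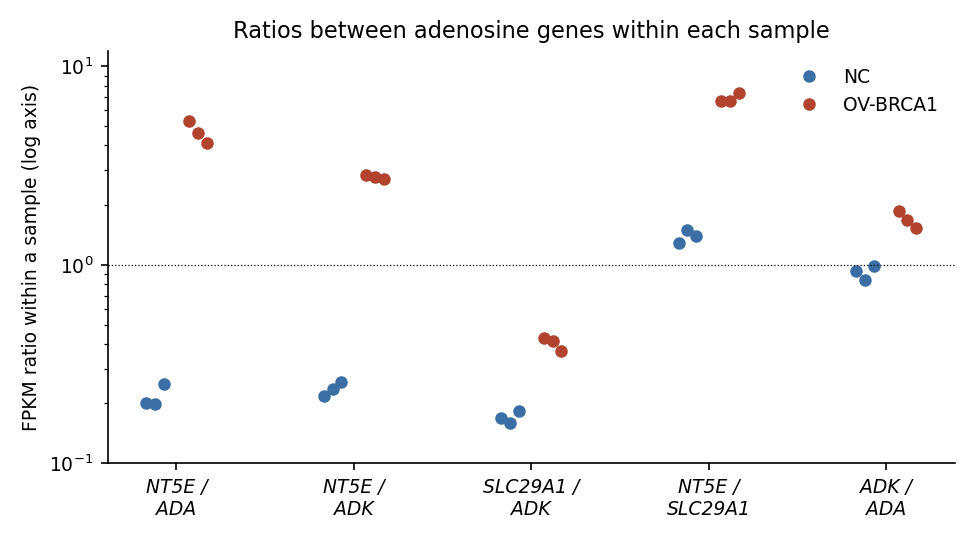
Ratio of FPKM between pairs of adenosine genes within each sample (y axis, log scale), by pair (x axis) and group (blue, NC; red, OV-BRCA1); each point is 1 sample and the dotted line is a ratio of 1. The groups are apart in all 5 ratios, and NT5E over ADA is 0.198-0.251 in NC, below the line, and 4.13-5.33 in OV-BRCA1, above it.

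ENTPD3 had no log2 fold change, and ADORA2A changed sign and had a value in 9 alternatives only. For the other genes the sign was the same in all 12 alternatives tried. NT5E had a log2 fold change between 3.41 and 3.64 and SLC29A1 between 1.14 and 1.34, and ADA lay between -0.82 and -0.64. ADK ran from 0.07 to 0.15, ADORA2B from 0.06 to 0.16, ADORA1 from 0.08 to 0.23 and ENTPD1 from -0.19 to -0.03. The share of FPKM taken by mitochondrial transcripts was 14.8% to 17.2% in OV-BRCA1 and 21.0% to 23.2% in NC, and scaling to nuclear protein-coding genes, which takes it out, is among these alternatives. All 6 epithelial and squamous markers were above 0 in at least 1 sample, which is what above 0 means for all markers here. KRT5 was at 0 in NC replicate 1. The summed level of the 6 markers, nearly all KRT8 and KRT18, was 609 to 650 FPKM in OV-BRCA1 and 508 to 542 FPKM in NC. EPCAM rose (log2 fold change 1.12, limma adjusted p = 0.00142), CDH1 was at 0.726 FPKM in OV-BRCA1 and 0.435 FPKM in NC, and KRT19 and the squamous keratin KRT5 did not pass the filter. Since CD39 and CD73 are also borne by leukocytes, endothelium and fibroblasts, their markers were read beside NT5E: 3 of 5 leukocyte markers were above 0, with sums of 31.3 to 37.2 FPKM against 22.2 to 23.9 FPKM, while the pan-leukocyte gene PTPRC was at 0 in all 6 samples. These sums join opposite changes, as CD68, a lysosomal protein of macrophages, rose from 3.43 to 26.3 FPKM (log2 fold change 2.63, limma adjusted p = 9.75e-05) and CD14, a monocyte receptor, fell from 19.4 to 7.79 FPKM (-1.22, limma adjusted p = 5.94e-04). Of 3 endothelial markers 2 were above 0 (sums of 0.761 to 1.45 against 0.629 to 0.788 FPKM, VWF at 0), and of 3 fibroblast markers 2 were (0.0 to 0.144 against 0.00916 to 0.0214 FPKM, LUM at 0). The part of these shifts in marker sums in the values of NT5E was not tested.

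Beyond the 9 genes, a list of 114 further genes of ATP release, nucleotide breakdown, transport, receptors and cAMP signalling was tested with limma and Benjamini-Hochberg adjustment over all 16321 genes, and 69 of them passed the filter. Like the 9 genes, the list was chosen with earlier results of these data known, so its counts are a description. At an adjusted p below 0.05, 13 of the 69 rose in OV-BRCA1, 17 fell and 39 did not pass. Of all genes tested, 16.4% were called higher and 18.9% lower. The criterion with a log2 fold change above 1 was met on the higher side by 4 of the 69 (PANX1, NT5C3A, XDH and RGS2). On the lower side it was met by 3 (ALPP, ALPG and FOS). Of all genes tested, 2.89% and 1.1% met it. XDH and ALPG passed the filter only through the group in which they were high, so they had to differ, and they could not be tested when a sample of that group was left out (9 of 12 alternatives gave a value). The median log2 fold change of the list was -0.05, against -0.04 over all genes. The count that fell is sensitive to single samples, with 10 genes without NC replicate 1 and also 10 without NC replicate 3. Of the 114 genes, 13 were listed at 0 in all samples.

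**Figure D4:**
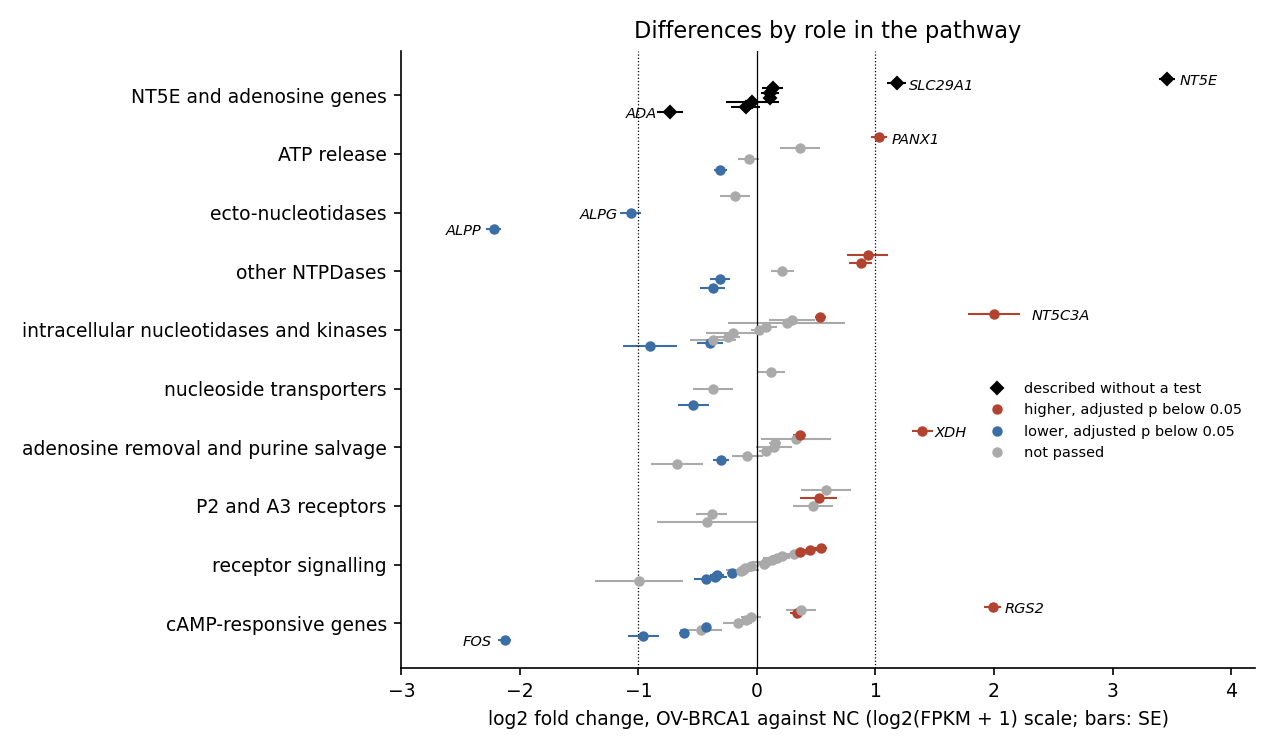
Log2 fold change of OV-BRCA1 against NC on the log2(FPKM + 1) scale (x axis, bars are SE) for the 8 adenosine genes that passed the filter (black diamonds, no test) and the 69 genes of the wider list (circles) by role (y axis). Red and blue circles are genes with a limma adjusted p below 0.05, gray ones did not pass, and dotted lines mark -1 and 1; NT5E at 3.46 lies farthest from 0, ahead of ALPP at -2.22 and FOS at -2.13.

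Among genes that put ATP outside the cell, PANX1, a channel that releases ATP, rose from 7.25 ± 0.116 to 15.8 ± 0.838 FPKM (log2 fold change 1.03, limma adjusted p = 1.29e-04), and ANKH, which exports ATP and pyrophosphate, fell (-0.31, adjusted p = 0.00671). Of 12 other ecto-nucleotidases only 3 passed the filter and 5 were listed at 0. ALPP, the placental alkaline phosphatase, which can strip phosphate from AMP as NT5E does, stood at 13.9, 12.8 and 13.1 FPKM in OV-BRCA1 and at 69.0, 65.05 and 62.2 FPKM in NC. All 3 OV-BRCA1 samples were far below all NC samples (log2 fold change -2.22, SE 0.06, limma adjusted p = 5.26e-06). Its near-identical neighbour ALPG, which entered the test only through NC, stood at 0.234 ± 0.0852 FPKM in OV-BRCA1 and 1.58 ± 0.0385 FPKM in NC, and reads may have been split between the pair. ENTPD2 stood at 0.649 FPKM in OV-BRCA1 and 0.860 FPKM in NC and did not pass.

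The NTPDases that act mainly inside the secretory pathway and other organelles were all measured, and 2 rose and 2 fell of 5, beside 16.4% of all genes called higher and 18.9% called lower. CANT1 (14.8 ± 1.19 against 7.38 ± 2.07 FPKM) and ENTPD7 (5.87 ± 0.254 against 2.76 ± 0.380 FPKM) rose, with limma adjusted p of 0.00804 and 0.00128. ENTPD4 (-0.31) and ENTPD5 (-0.37) fell with limma adjusted p of 0.0324 and 0.0357, and each call held in 5 of 12 alternatives. Of the intracellular nucleotidases and AMP-handling enzymes, 2 of 11 tested rose and 2 fell, near those shares of all genes. NT5C3A, a pyrimidine 5'-nucleotidase of the cytosol, rose from 17.8 ± 5.71 to 72.9 ± 11.7 FPKM (log2 fold change 1.9995, SE 0.22, limma adjusted p = 0.00119). The adenylate kinase AK1 fell (-0.90), as did the AMP deaminase AMPD2 (-0.40). NT5C2, a cytosolic nucleotidase that acts on IMP and GMP, stood at 43.2 FPKM in OV-BRCA1 and 42.6 FPKM in NC.

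SLC29A2 (ENT2), the closest relative of SLC29A1, fell from 2.55 ± 0.213 to 1.46 ± 0.367 FPKM (log2 fold change -0.54, limma adjusted p = 0.0221), opposite in direction to the SLC29A1 values. SLC29A3 and SLC29A4 did not pass, and of the concentrative transporters SLC28A1 and SLC28A3 were listed at 0. Beyond ADA and ADK, 2 of 9 genes of adenosine removal and purine salvage were called higher and 1 lower, beside 16.4% and 18.9% of all genes, with XDH among the former. XDH, which oxidizes hypoxanthine to urate, stood at 1.95 ± 0.116 FPKM in OV-BRCA1 and 0.123 ± 0.0590 FPKM in NC, and entered the test only through OV-BRCA1. PNP, which acts on the inosine that ADA makes, rose from 126 ± 5.39 to 162 ± 6.47 FPKM (log2 fold change 0.36). APRT, which salvages adenine, fell (-0.30). ADA2, the secreted deaminase, was listed at 0, and AHCY, which releases adenosine from S-adenosylhomocysteine, stood at 143 FPKM against 135 FPKM without passing.

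On the signalling side the changes were mostly small. Of 18 genes for P2 receptors and ADORA3, 5 passed the filter, and 1 of the 5 was called higher, beside 16.4% of all genes. This was P2RY6, a receptor for UDP (1.23 ± 0.431 against 0.533 ± 0.0375 FPKM, limma adjusted p = 0.0429). Among genes of receptor signalling 3 of 18 rose and 4 fell, near the 16.4% and 18.9% of all genes. GNAS, whose Gs-alpha product couples ADORA2A and ADORA2B to adenylyl cyclase, fell from 1081 ± 29.5 to 857 ± 62.8 FPKM (-0.34), and the cyclase ADCY3 (-0.43), GNAL (-0.35) and GNAI2 (-0.21), which encodes an alpha subunit of Gi, fell too. GNAI1 (0.45), PRKAR2B (0.54) and PDE4D (0.37) rose. Of 11 genes known to respond to cAMP, 2 rose and 4 fell, beside the same 16.4% and 18.9% of all genes. RGS2, a brake on G protein signalling, rose from 5.85 ± 0.402 to 26.2 ± 1.33 FPKM (log2 fold change 1.99, limma adjusted p = 1.37e-05) and AREG, an EGFR ligand, rose by 0.34. FOS fell from 312 ± 15.2 to 70.6 ± 2.33 FPKM (-2.13, limma adjusted p = 3.88e-06), and PER1 (-0.96), SIK1 (-0.62) and DUSP1 (-0.43) fell as well. These genes answer to many signals besides cAMP, and NR4A1, NR4A2 and NR4A3 did not pass.

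Some of the calls did not hold with fewer samples, although the sign of the change was the same in all 12 alternatives. Leaving out 1 sample at a time ended the call of ENTPD4, ENTPD5, AMPD2, AK1, SLC29A2, P2RY6, GNAL or ADCY3 in at least 1 case, and each of the 6 samples ended at least 1 call when left out, with limma adjusted p of up to 0.0939 (ENTPD4, without NC replicate 1), 0.102 (ENTPD5, without NC replicate 2), 0.1002 (AMPD2, without NC replicate 1), 0.0773 (AK1, without NC replicate 3), 0.0675 (SLC29A2, without NC replicate 1), 0.117 (P2RY6, without OV-BRCA1 replicate 3), 0.0867 (GNAL, without OV-BRCA1 replicate 2) and 0.0621 (ADCY3, without OV-BRCA1 replicate 1).

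The 5 genes whose profile over the 6 samples was most like that of NT5E were MX1, LGALS3BP, TCN2, AC104534.1 and SERPINB2. Likeness was the root-mean-square difference from NT5E of log2(FPKM + 1) after subtracting the mean of NC, and it was 0.0962, 0.133, 0.135, 0.145 and 0.169 in that order, with smaller values being closer. MX1, an interferon-induced GTPase, stood at 252, 246 and 255 FPKM in OV-BRCA1 and at 20.2, 20.4 and 20.3 FPKM in NC. LGALS3BP, a secreted glycoprotein that binds galectins, stood at 127 ± 7.36 against 11.9 ± 1.16 FPKM, and TCN2, the carrier of vitamin B12 in plasma, at 16.5 ± 1.61 against 0.724 ± 0.142 FPKM. SERPINB2, a plasminogen activator inhibitor, stood at 16.0 ± 0.664 against 0.380 ± 0.120 FPKM and passed the filter on low values only through OV-BRCA1. AC104534.1, at 22.6 ± 1.17 against 0.980 ± 0.316 FPKM, lies wholly within ECH1 on the opposite strand, so its level is uncertain. Parts of SERPINB2 overlap SERPINB10 on the same strand (6717 bases), and parts of MX1 and TCN2 overlap AP001610.1 (4653 bases) and PES1 (246 bases) on the opposite strand. With 3 samples a group, the likeness reflects the size of the group difference above all.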

How the data were processed

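Total RNA of 6 SiHa samples (3 OV-BRCA1, 3 NC) was made into mRNA libraries by the authors, who deposited FPKM values for 199167 transcripts. The submitters' processing notes name FastQC, HISAT2 and hg38. The quantification tool, its annotation and the use of strand are not given in the sources used here. Of these transcripts, 198868 were in GENCODE 29, 98.7% of them at the same position on GRCh38, and FPKM was summed over transcripts of a gene. The 6 sample tables held the same values as the table of the whole series.

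Genes at 0.5 FPKM or more in 3 or more samples (16321) were compared on log2(FPKM + 1) with limma 3.58.1 in R 4.3.3 (eBayes with trend, Benjamini-Hochberg adjustment over all genes tested). The pseudocount of 1 understates the change of low genes. Since the values are FPKM, limma took the place of the count test of the study. From the steps of low values, depth was estimated at 14.3 to 19.98 M fragments per sample, as an approximation, since only 30.6% to 37.4% of low values came within 0.1 of a whole fragment. Fragment numbers are estimates. The members and lists were chosen with earlier results of these data known. Outside the 9 genes, BRCA1 was named, with up to 5 genes per role by largest absolute log2 fold change among those with adjusted p below 0.05, and the 5 genes most like NT5E. Genes named beyond that rule were chosen after their values were seen, and some list genes are not reported here. The script was tested on simulated data. Alternatives were another pseudocount (0.1), no filter, 2 other scalings, robust estimation, a replicate block and leaving out each sample. P-values measure the spread between these samples of 1 cell line.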

Additional observations from a re-analysis of the deposited data

How the results depend on the processing

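With a pseudocount of 0.1, 1280 genes in place of 651 and 11 genes of the wider pathway list in place of 7 met the criterion of an adjusted p below 0.05 with an absolute log2 fold change above 1, since low genes then show larger fold changes. Without the filter on low values, where more genes are tested, 11 list genes in place of 17 were lower. Leaving out 1 sample at a time gave 10 to 15 such genes, with 10 without NC replicate 1 or 3. The other counts stayed within 1.5 times. With a replicate block the list had 13 genes higher, 13 lower and 7 past the criterion, and 646 genes of all met it. The replicate numbers did not pair the samples, as the deviations of same-numbered samples correlated at -0.02, 0.02 and 0.01. The block lost the calls of ENTPD4, AK1, SLC29A2, APRT, P2RY6 and GNAL. PANX1 met the fold criterion in 10 of 12 alternatives, with its log2 fold change at 0.99 under scaling to nuclear protein-coding genes. Among the members above 0, the lowest estimated fragment numbers were those of ADORA2A, ADORA1 and ENTPD1.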

Other observations

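Some genes of the adenosine and cAMP list were apart between the groups without passing the test. Of all genes tested, 23.4% were apart on the higher side and 27.4% on the lower side. AHCYL1, a relative of the enzyme that hydrolyses S-adenosylhomocysteine, stood at 23.1 FPKM in OV-BRCA1 and 36.5 FPKM in NC (limma adjusted p = 0.0545). The ATP-gated channels P2RX4 (12.4 against 8.51 FPKM) and P2RX5 (8.82 against 5.74 FPKM) had limma adjusted p of 0.0698 and 0.0775. The gaps were narrow for AHCYL1 (highest OV-BRCA1 sample 31.0 FPKM, lowest NC sample 31.2 FPKM) and P2RX5 (lowest OV-BRCA1 sample 7.96 FPKM, highest NC sample 7.71 FPKM). These genes were named after their values were seen, and other list genes were apart without passing too.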
